A study of Homo sapiens with 12 samples.

Results

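The S100 family is a group of small calcium-binding proteins, and 10 of its genes were followed here: S100A2, S100A3, S100A4, S100A6, S100A10, S100A11, S100A13, S100A14, S100A16 and S100P. They were found by symbol among the 61541 genes of a count table from RNA sequencing of 12 libraries labelled A549, a human lung adenocarcinoma line. All 10 passed the filter on low counts, which kept 16768 genes. A further 11 S100 genes of the table, mostly near 0, are given after them.

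The 12 libraries formed 4 groups of 3, all collected 14 days after transduction. Lone control cells carried a non-targeting guide (gNTC1) with Cas9, and a second control group with the same guide was grown in co-culture. In lone knockout cells Cas9 cut TYMS. It encodes thymidylate synthase, which makes the thymidine nucleotide needed for DNA. Co-cultured knockout cells had the same genotype and were grown with parental A549, a condition in which the study describes restored proliferation. The labels do not state the partner of the co-cultured control cells, whether partner cells were removed before RNA was taken, whether the knockout was 1 clone, or whether libraries of a group came from separate cultures. The p-values below therefore measure the spread between these libraries, which may be technical.

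S100 proteins pair into dimers with EF-hand loops that bind calcium. On binding it, most of them open a surface that docks to target proteins such as annexins, myosin or membrane receptors. S100A10 is the exception in that its loops no longer bind calcium and it is held to annexin A2. Most family genes lie in one cluster on chromosome 1 beside the genes of the skin barrier, and several are known as epithelial or tumour-associated proteins in lung cancer.

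In GENCODE 29 on GRCh38, 9 of the 10 genes lie on the minus strand of chromosome 1 between 151982915 and 153631360. S100A10 and S100A11 form one end, separated by 38115 bases, and lie 1486691 bases from S100A6. S100A3 lies within the span of S100A4. S100A14 lies 1109 bases from S100A16 and 1800 bases from S100A13. S100P is on the plus strand of chromosome 4 between 6693069 and 6697170.

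The 250 bases before the RefSeq start (GRCh38.p14) are shown for the 4 genes that differed between lone knockout and lone control cells. S100A14 and S100A2 were lower, and S100A10 and S100A11 were higher. Each is written 5′ to 3′ on the minus strand, and capitals mark matches on either strand. The first motif searched, the TATA box, was TATAAA. For AP-1, a dimer of FOS and JUN proteins, the letters were TGANTCA. For the GC box bound by SP1 they were GGGCGG. For the E-box bound by ZEB and SNAI repressors they were CACCTG.
S100A14, chr1:153616326-153616575: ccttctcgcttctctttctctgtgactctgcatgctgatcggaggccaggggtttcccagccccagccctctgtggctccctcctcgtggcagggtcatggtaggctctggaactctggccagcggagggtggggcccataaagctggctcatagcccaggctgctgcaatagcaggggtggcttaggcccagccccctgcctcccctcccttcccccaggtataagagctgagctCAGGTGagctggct
S100A2, chr1:153565845-153566094: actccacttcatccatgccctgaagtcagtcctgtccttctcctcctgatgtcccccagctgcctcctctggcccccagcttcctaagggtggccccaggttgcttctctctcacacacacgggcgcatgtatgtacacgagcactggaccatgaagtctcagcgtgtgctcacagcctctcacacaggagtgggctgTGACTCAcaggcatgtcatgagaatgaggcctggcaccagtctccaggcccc
S100A10, chr1:151993860-151994109: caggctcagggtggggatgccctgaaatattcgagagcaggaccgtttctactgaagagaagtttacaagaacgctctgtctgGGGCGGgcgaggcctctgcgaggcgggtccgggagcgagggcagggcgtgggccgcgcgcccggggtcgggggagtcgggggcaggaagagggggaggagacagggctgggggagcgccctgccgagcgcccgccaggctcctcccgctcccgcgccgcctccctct
S100A11, chr1:152037005-152037254: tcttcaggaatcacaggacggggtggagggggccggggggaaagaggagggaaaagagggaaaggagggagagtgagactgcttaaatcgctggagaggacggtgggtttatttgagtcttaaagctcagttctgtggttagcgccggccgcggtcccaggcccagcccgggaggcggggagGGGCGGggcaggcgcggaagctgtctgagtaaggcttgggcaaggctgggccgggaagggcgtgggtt
The table of starts held 14 windows for the 10 genes. S100A2 had another window at 153563888, not shown, with 3 CpG dinucleotides, 1 CACCTG match and no AP-1 match. The S100A14 and S100A2 windows shown each held 4 CpG dinucleotides, below the median of 11 over 35116 windows. The S100A10 window held 24 and the S100A11 window 15. Genes that did not pass in that comparison spanned the same counts: S100A3 4, S100P 4, S100A16 1 and 6, S100A4 7, S100A13 8, 10 and 15, and S100A6 24. A GC box was found in 42.6% of all windows, an AP-1 match in 6.57%, a CACCTG match in 17.5% and a TATAAA match in 10.7%. These matches describe letters and no binding was measured.

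TYMS itself was 95.4 ± 5.27 CPM (counts scaled to library size, mean ± SD, n = 3) in lone control cells and 93.4 ± 2.67 in co-cultured control cells. In knockout cells TYMS was 20.9 ± 0.547 alone and 11.05 ± 0.360 in co-culture. Library totals ran from 14921371 to 35723762 counts. A549 is known to have lost CDKN2A, CDKN2B and MTAP. Their summed level was 154 to 166 CPM in lone control and 122 to 142 in co-cultured control libraries, against 0.548 to 0.647 and 0.302 to 0.745 in the lone and co-cultured knockout libraries. The libraries labelled control thus go against the A549 label on these genes. A list of 8 genes known to be high in A549 summed to 7107 to 8356 CPM in lone control and 15141 to 16084 in lone knockout libraries. In co-culture the sums were 6546 to 8161 in control and 14590 to 15251 in knockout libraries. Of these 8 genes, 7 passed as higher and 0 as lower in lone knockout against lone control cells, beside 28% and 28.6% of all genes. Genotype and cell population cannot be told apart in any comparison of knockout with control libraries, and "control" below means the libraries so labelled. Co-cultured against lone knockout is made within the knockout-labelled libraries. Markers of other cell types were low: 7 mesenchymal genes summed to 14.3 to 34.3 CPM, 5 immune genes to 1.99 to 7.51 and 3 endothelial genes to 0.0847 to 2.60. The 6 epithelial markers summed to 8358 to 17778 CPM, and in lone knockout against lone control cells 4 of them were lower, 1 higher and 1 did not pass. EPCAM was 104 CPM in lone control and 0.620 in lone knockout cells, KRT19 1740 and 255, and KRT7 1910 and 5952.

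Per exon length, the order of the levels differed between groups. In lone control cells S100A6 was highest at 819 ± 135 RPKM (CPM per kilobase of merged exon), followed by S100A11 at 347 ± 39.1. S100A4, S100A10 and S100A16 stood at 240, 203 and 188 RPKM, and these neighbours overlapped. S100A14 was at 101 RPKM, S100A13, S100A2 and S100A3 at 23.2 to 24.6, and S100P at 1.34. In lone knockout cells S100A11 (743 RPKM) and S100A6 (693 RPKM) overlapped, S100A10 stood at 478, and S100A14 was last at 0.201. The summed level of the 10 genes was 2153 ± 338 CPM in lone control, 2171 ± 208 in co-cultured control, 2551 ± 464 in lone knockout and 2839 ± 481 in co-cultured knockout libraries.

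**Figure D1:**
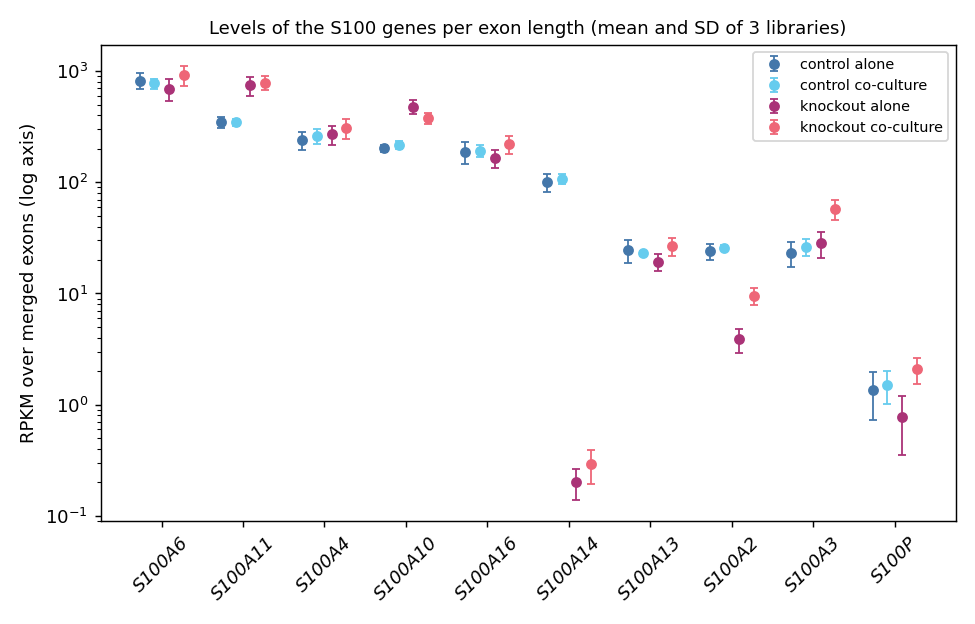
Level of each S100 gene per exon length in RPKM on a log axis, with the mean and SD of 3 libraries for each of the 4 groups. S100A14 drops from 101 RPKM in lone control to 0.201 in lone knockout cells, while S100A6 and S100A11 stay near the top in each group.

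In lone knockout against lone control cells, 4 of the 10 genes passed an adjusted p of 0.05 (edgeR quasi-likelihood test, Benjamini-Hochberg adjustment over all 16768 genes). S100A10 and S100A11 were higher, and S100A2 and S100A14 were lower. Over all genes tested 56.6% passed, 28% higher and 28.6% lower, so the share of S100 genes was no higher than the background. The median log2 fold change was -0.21 over the 10 genes and 0.09 over all genes. With offsets for GC content 7 of the 10 passed, beside 62.8% of all genes in that fit.

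S100A14, a membrane-near protein of epithelial cells, was almost absent from the knockout libraries. It read 101.7, 139.7 and 144.5 CPM in the 3 lone control libraries, and 144.0, 121.5 and 146.3 in co-cultured control libraries. In knockout cells it read 0.339, 0.249 and 0.183 alone (8, 5 and 3 counts) and 0.302, 0.298 and 0.522 in co-culture (7, 10 and 14 counts). Every control library was far above every knockout library, and no group of knockout and control overlapped. The log2 fold change was -8.89 (SE 0.34, adjusted p = 2.58e-10) alone and -8.50 (SE 0.27, adjusted p = 3.60e-10) in co-culture. As a ratio of mean CPM, S100A14 stood at 0.1996% of control alone and 0.2726% in co-culture. Between lone and co-cultured knockout cells the difference was 0.48 (adjusted p = 0.461), at counts of 3 to 14 a library.

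S100A2, a nuclear S100 protein that binds p53, was lower in knockout cells and rose in co-culture. It read 30.8, 39.5 and 42.8 CPM in lone control libraries and 42.9, 39.3 and 39.1 in co-cultured control libraries. In knockout cells it read 4.66, 5.93 and 7.61 alone and 15.48, 17.27 and 12.02 in co-culture. All 3 lone knockout libraries were below all 3 co-cultured ones, and these were below every control library. The log2 fold change against control was -2.64 (SE 0.20, 95% interval -3.08 to -2.20, adjusted p = 4.74e-07) alone and -1.44 (SE 0.20, adjusted p = 6.39e-05) in co-culture. Co-cultured knockout cells were 2.47-fold above lone ones (log2 1.31, SE 0.20, adjusted p = 0.00209). S100A2 thus stood at 16.1% of control alone and 36.9% in co-culture. MTAP was at 0.977% and 0.788%, and S100A14 as given above. Since A549, the stated partner, is known to have lost MTAP, its level cannot show whether partner cells were present. The difference between the co-culture changes in knockout and control cells was 1.21 (95% interval 0.59 to 1.82), with an adjusted p of 0.0526. It passed with DESeq2, library sizes alone, no filter and GC offsets, and without lone control replicate 1, lone knockout replicate 3 or co-cultured knockout replicate 3.

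S100A10 (p11), the partner of annexin A2, and S100A11 (calgizzarin), which binds annexin A1, rose in knockout cells. S100A10 read 297.6, 300.6 and 339.8 CPM in lone control libraries, 345.4, 303.0 and 359.1 in co-cultured control libraries, 615.6, 781.1 and 816.9 in lone knockout libraries and 596.6, 647.2 and 516.4 in co-cultured knockout libraries. S100A11 read 207.7, 238.6 and 260.7 in lone control libraries, 234.5, 218.8 and 251.3 in co-cultured control libraries, 395.0, 567.6 and 552.6 in lone knockout libraries and 527.0, 615.6 and 464.0 in co-cultured knockout libraries. For both genes each knockout library was above each control library, and the 2 groups of knockout libraries overlapped. S100A10 was 2.36-fold higher alone (log2 1.24, SE 0.15, adjusted p = 1.82e-05) and 1.75-fold higher in co-culture (log2 0.81, SE 0.15, adjusted p = 0.000643). S100A11 was 2.14-fold higher alone (log2 1.10, SE 0.17, adjusted p = 0.000134) and 2.28-fold higher in co-culture (log2 1.19, SE 0.17, adjusted p = 7.77e-05). Between lone and co-cultured knockout cells S100A10 differed by -0.33 (adjusted p = 0.158), and S100A11 by 0.08 (adjusted p = 0.762). The S100A10 difference passed with library sizes alone (-0.39, adjusted p = 0.0273) and with GC offsets (-0.50, adjusted p = 0.000669).

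**Figure D2:**
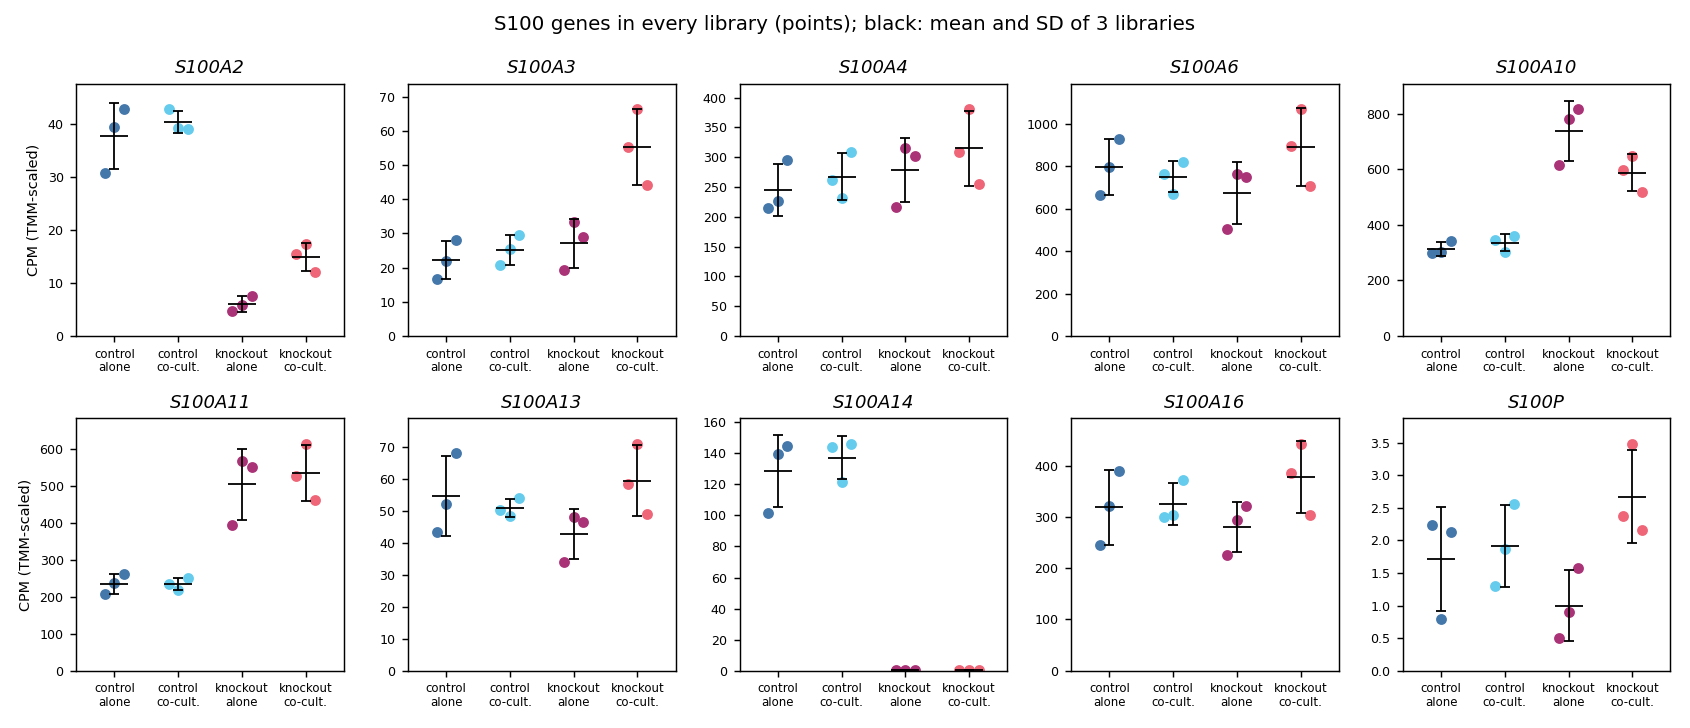
CPM of each S100 gene in every library (points), with the mean and SD of 3 libraries in black; axes start at 0 and differ between panels. S100A14 lies near 0 in both knockout groups, S100A2 is lowest in lone knockout cells, and S100A10 and S100A11 are higher in all 6 knockout libraries than in any control library.

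In co-cultured against lone knockout cells, 2 of the 10 genes passed, S100A2 and S100A3, both higher. Over all genes 11.4% passed, 5.97% higher and 5.4% lower. The median log2 fold change of the 10 genes was 0.45 and that of all genes 0.01. This count rested on single libraries: it was 1 without lone knockout replicate 1 or without co-cultured knockout replicate 1 or 2, and 6 without co-cultured knockout replicate 3. In that last fit the genes called over the whole table went from 1907 to 5680 (33.4%). They went to 603 (3.50%) without lone knockout replicate 1. Without co-cultured knockout replicate 1 or 2 they went to 536 (3.13%) and 819 (4.78%). Co-cultured knockout replicates 2 and 3 also lie at the ends of the GC trend. The correlation of a library's deviation with transcript GC content was 0.736 in replicate 2 and -0.757 in replicate 3. It also ran from -0.619 to 0.587 in lone control, -0.472 to 0.575 in co-cultured control and -0.547 to 0.532 in lone knockout libraries. The 10 genes have a median GC content of 55.2% against 49.7% over tested genes. The part of that trend in the differences was not tested beyond the GC offsets.

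S100A3, a cysteine-rich S100 protein known from the hair cuticle, was highest in co-cultured knockout cells. It read 16.7, 21.8 and 28.0 CPM in lone control libraries, 20.7, 25.3 and 29.5 in co-cultured control libraries, 19.2, 33.2 and 28.8 in lone knockout libraries and 55.4, 66.4 and 44.1 in co-cultured knockout libraries. The 3 co-cultured knockout libraries were above all 9 others, and those groups overlapped. Co-cultured against lone knockout gave 2.04-fold (log2 1.03, SE 0.24, 95% interval 0.51 to 1.55, adjusted p = 0.0195), and co-cultured knockout against co-cultured control 2.20-fold (log2 1.13, SE 0.24, adjusted p = 0.00179). Lone knockout against lone control was 0.28 (adjusted p = 0.334), and this difference passed in 2 of the alternatives. Adjusted for GC content, S100A3 was 18.6 ± 1.94 CPM in lone control and 32.1 ± 6.60 in lone knockout cells. The call in co-cultured against lone knockout was lost when only those 2 groups were fitted (edgeR adjusted p = 0.0618). It was also lost without lone knockout replicate 1 (0.0889) or 3 (0.0501) or co-cultured knockout replicate 1 (0.0719) or 2 (0.0705), all as edgeR adjusted p.

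S100P, a protein that binds ezrin and the receptor RAGE, was the lowest of the 10 genes in control cells. It read 2.23, 0.801 and 2.13 CPM in lone control libraries, 1.31, 1.87 and 2.57 in co-cultured control libraries, 0.508, 0.896 and 1.58 in lone knockout libraries and 2.37, 3.49 and 2.16 in co-cultured knockout libraries. The 3 co-cultured knockout libraries were above the 3 lone knockout ones, at 12 to 26 counts a library alone and 55 to 117 in co-culture. The difference was 1.47 (SE 0.45, 95% interval 0.51 to 2.43) and its edgeR adjusted p was 0.0506. It passed with DESeq2 (adjusted p = 0.0103), limma voom (adjusted p = 0.0341), RLE scaling, no filter and GC offsets, and without lone control replicate 2, lone knockout replicate 3 or co-cultured knockout replicate 3.

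S100A4, which binds non-muscle myosin, S100A6 (calcyclin), which binds CACYBP, S100A13, which takes part in the release of FGF1, and S100A16, a widely expressed family member, did not pass in any comparison of the 12 libraries as described above. S100A4 ranged over the 12 libraries from 214.3 to 381.1 CPM, S100A6 from 504.1 to 1071, S100A13 from 33.9 to 70.9 and S100A16 from 225.7 to 443.7. Lone knockout against lone control gave log2 fold changes of 0.18, -0.24, -0.35 and -0.19 (edgeR adjusted p = 0.459, 0.325, 0.137 and 0.443). Co-cultured against lone knockout gave 0.18, 0.41, 0.47 and 0.43 (edgeR adjusted p = 0.567, 0.197, 0.124 and 0.170), and for S100A13 these 2 groups did not overlap. Without co-cultured knockout replicate 3, S100A6 (0.55), S100A13 (0.60) and S100A16 (0.57) passed in that comparison (edgeR adjusted p = 0.04997, 0.0287 and 0.0428), and S100A13 and S100A16 also passed with no filter (0.61 and 0.57). S100A13 passed in lone knockout against lone control without lone control replicate 1 (-0.50, adjusted p = 0.0488). With GC offsets S100A6 passed in the opposite direction in lone knockout against lone control (0.34, adjusted p = 0.0103), and S100A16 changed sign (0.18), so no direction is given for either in that comparison. S100A4 passed there with GC offsets (0.46, adjusted p = 0.00279) and with library sizes alone (0.34, adjusted p = 0.0385). In co-cultured knockout against control cells all 4 passed as higher with GC offsets, S100A4 by 0.31, S100A6 by 0.45, S100A13 by 0.29 and S100A16 by 0.32 (edgeR adjusted p = 0.0288, 0.00145, 0.0366 and 0.00727). S100A13 exons share 235 bases with S100A1 on the opposite strand and 536 with AL162258.1 on the same strand. The counting is not stated to use strand, and strand would not separate the second overlap. S100A13 reads therefore cannot be fully told apart from those of the 2 genes.

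In co-cultured knockout against co-cultured control cells, 5 of the 10 genes passed, S100A3, S100A10 and S100A11 higher and S100A2 and S100A14 lower. Over all genes 49.4% passed, 24.1% higher and 25.3% lower. With GC offsets 9 of the 10 passed, beside 62.2% of all genes in that fit. In co-cultured against lone control cells 0 of the 10 passed in edgeR and 0 had an unadjusted p under 0.05. Over all genes 0% passed in edgeR, 540 genes were under an unadjusted p of 0.05, and DESeq2 and limma voom called 0 genes. The test of the difference between the co-culture changes called 0 of the 10 in edgeR, 2 at an unadjusted p under 0.05, 1 with DESeq2 (S100A2, 1.31, adjusted p = 0.00590) and 0 with limma voom. Over all genes it called 1.8%, with 1.51% larger and 0.286% smaller in knockout cells.

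**Figure D3:**
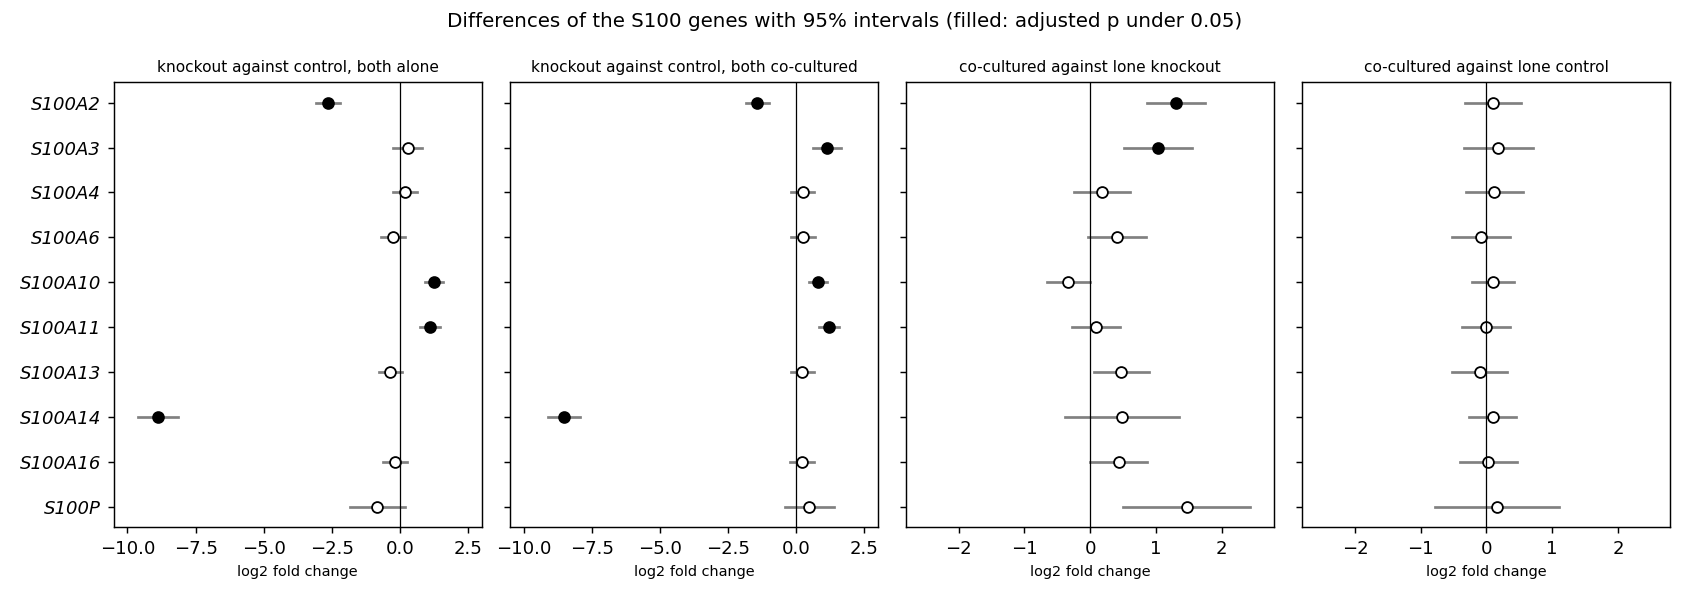
Log2 fold changes of the 10 S100 genes in the 4 comparisons of 2 groups with 95% intervals; filled points have an edgeR adjusted p under 0.05, and panels have their own x ranges. S100A14 lies at -8.89 and -8.50 against control, and S100A2 and S100A3 are the filled points in co-cultured against lone knockout cells.

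In lone knockout against lone control cells, genes around the members on chromosome 1 differed in direction between the S100A10 end and the other end. Of 67 annotated genes on chromosome 1 within 250 kb of a member, 22 were tested, and 13 passed, 8 higher and 5 lower. Near S100A10 and S100A11 all that passed were higher: TDRKH, TDRKH-AS1, THEM4, TCHH, FLG-AS1, CCDST and HRNR. TDRKH-AS1, TCHH, FLG-AS1, CCDST and HRNR were at most 0.240 CPM in lone control cells. The 5 lower genes, S100A5, CHTOP, ILF2, NPR1 and SLC27A3, lay at the other end, where an unnamed gene was higher. A cause was not tested. Over all genes 56.6% passed, and the median log2 fold change was 0.77 for the 22 and 0.09 for all genes. Around S100P on chromosome 4, 9 of 13 genes were tested, and 3 were higher and 3 lower. SLC27A3, a fatty acid transport protein, fell from 22.3 ± 5.43 to 1.32 ± 0.161 CPM (log2 -4.09, SE 0.24, adjusted p = 3.96e-08). FLG-AS1, an antisense transcript of the filaggrin gene, rose from 0.240 ± 0.167 to 8.03 ± 1.43 CPM (log2 5.05, SE 0.43, adjusted p = 2.94e-07). CHTOP, an mRNA export factor, fell by 0.99 on the log2 scale (adjusted p = 1.79e-05). S100A14 and S100A2 were lower while S100A16, which lies between them, did not pass. Between co-cultured and lone knockout cells 2 of the 31 genes on both chromosomes passed, CCDST on chromosome 1 and PPP2R2C on chromosome 4, beside 11.4% of all genes. That count ran from 0 to 9 when single libraries were left out, and the share of all genes from 3.13% to 33.4%. CHTOP was added after its values were seen, as were the alternatives for these neighbours and for the partners below.

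**Figure D4:**
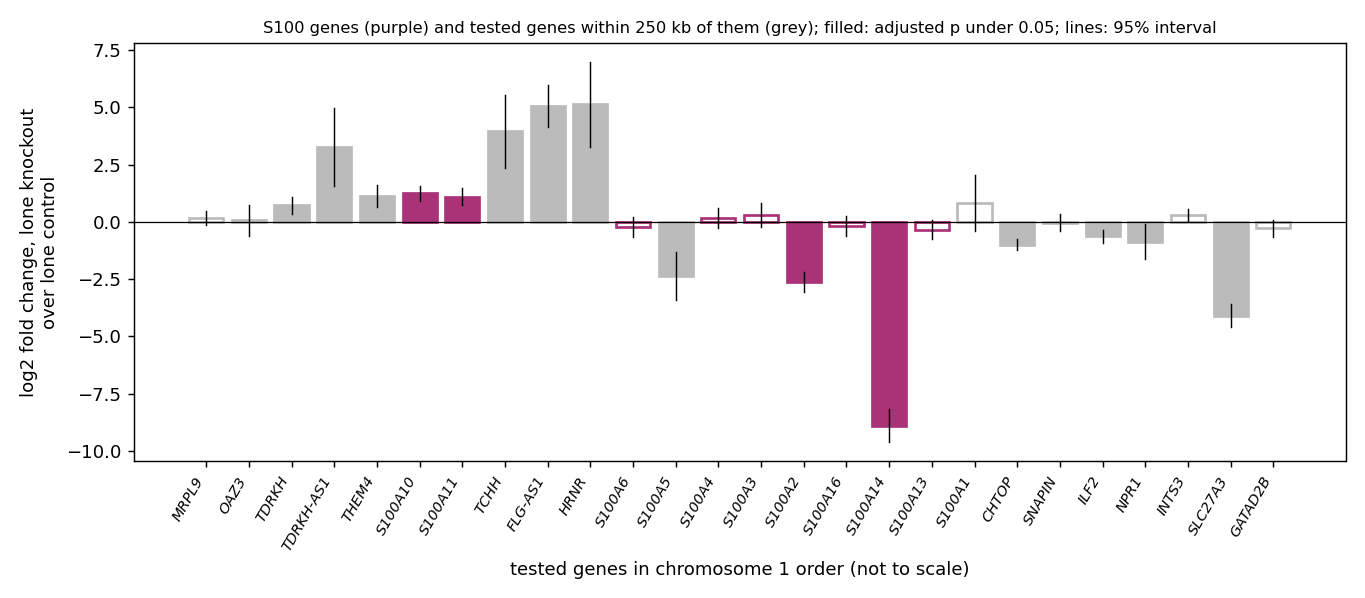
Log2 fold change of lone knockout over lone control for the S100 genes (purple) and tested named neighbours (grey) in chromosome order; filled bars passed an adjusted p of 0.05 and lines are 95% intervals. S100A10 and S100A11 are higher at one end, and S100A2 and S100A14 are lower at the other. Named neighbours that passed are higher at the first end and lower at the other. CCDST, at 0 in control libraries, is not drawn, and HRNR rests on 0 to 4 counts in them.

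Among the 11 other S100 genes counted, 2 were tested. S100A5 was 1.124 ± 0.122 CPM in lone control, 1.13 ± 0.204 in co-cultured control, 0.217 ± 0.145 in lone knockout and 0.121 ± 0.0570 in co-cultured knockout libraries. It fell by 2.35 on the log2 scale alone (adjusted p = 0.000729) and by 3.18 in co-culture (adjusted p = 8.12e-05), on 1 to 7 counts in knockout libraries. S100A1 did not pass. S100A9, a subunit of calprotectin, was 0 to 3 counts in every library of the other groups and 8 to 23 in co-cultured knockout libraries, and was not tested.

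Partners of S100 proteins differed in both directions between knockout and control cells. Of 23 listed, 22 were tested, and 14 passed in lone knockout against lone control cells, 9 higher and 5 lower, beside 56.6% of all genes. ANXA2, the annexin held by S100A10, read 775, 892 and 749 CPM in lone control libraries and 2537, 2882 and 2570 in lone knockout libraries, with no overlap (log2 1.73, SE 0.14, adjusted p = 5.82e-07). In co-culture ANXA2 was 969 ± 110 CPM in control and 2420 ± 41.1 in knockout cells (log2 1.32, SE 0.14, adjusted p = 6.74e-06). AHNAK, a scaffold protein bound by S100A10 and annexin A2, was 142 ± 13.3 CPM in lone control, 796 ± 112 in lone knockout and 282 ± 108 in co-cultured knockout cells. It rose by 2.49 on the log2 scale (SE 0.23, adjusted p = 2.50e-06) alone and was 2.83-fold lower in co-cultured than in lone knockout cells (SE 0.23, adjusted p = 0.00186). EZR (ezrin), which S100P binds, was 1697 ± 304 CPM in lone control and 547 ± 26.1 in lone knockout cells (log2 -1.63, SE 0.16, adjusted p = 2.32e-06). PLAT, tissue plasminogen activator, which the S100A10 and annexin A2 complex binds, was 11.9 ± 0.608 CPM in lone control, 11.1 ± 0.484 in co-cultured control, 5.73 ± 0.479 in lone knockout and 14.7 ± 1.27 in co-cultured knockout cells. It fell by 1.05 on the log2 scale alone (adjusted p = 0.000159) and was 2.57-fold higher in co-cultured than in lone knockout cells (adjusted p = 0.000332). ANXA1, which S100A11 binds and which was added after its values were seen, was 86.4 ± 24.0 CPM in lone control and 511 ± 69.5 in lone knockout cells (log2 2.56, SE 0.31, adjusted p = 2.60e-05). Co-culture of knockout cells gave 6 of the 22 past the threshold, 1 higher and 5 lower, beside 5.97% higher and 5.4% lower over all genes. For co-cultured knockout against control it was 15, 9 higher and 6 lower, beside 24.1% and 25.3% over all genes. The count of 6 ran from 2 to 10 when single libraries were left out, and the share of all genes from 3.13% to 33.4%.

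**Figure D5:**
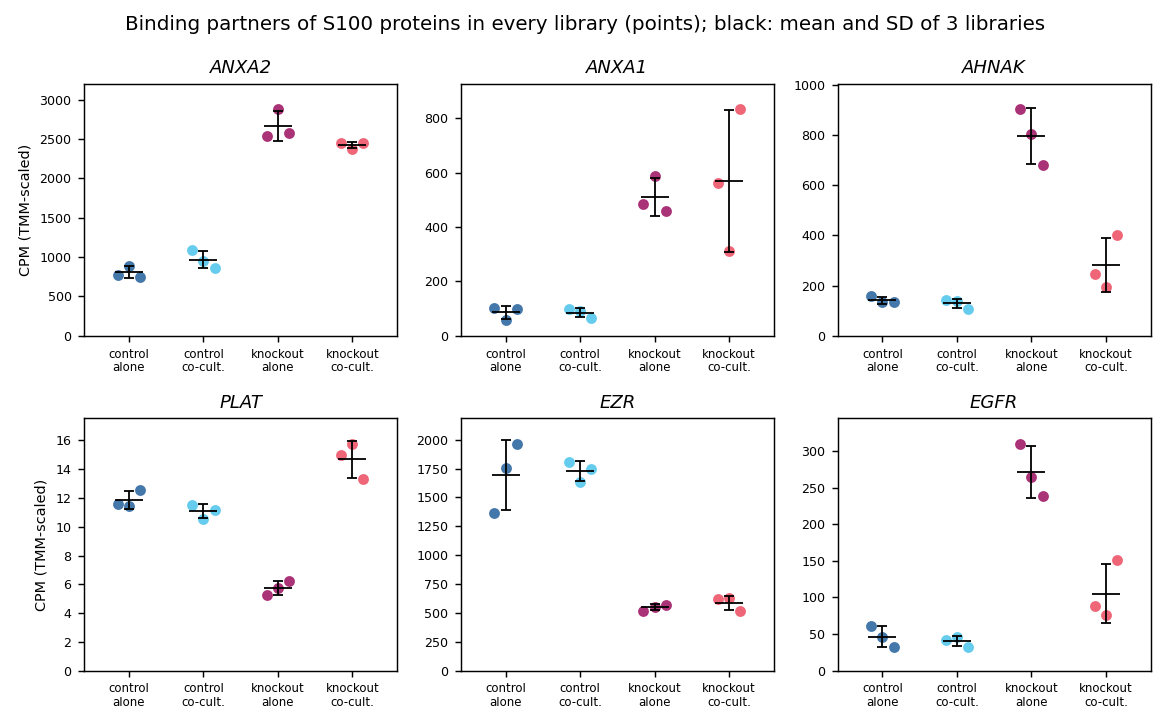
CPM in every library of the S100 partner genes drawn, with the mean and SD of 3 libraries for each group. ANXA2 is higher in all knockout libraries, and PLAT is lowest in lone knockout libraries and highest in co-cultured knockout libraries.

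Over the 12 libraries the log2 CPM of 10261 genes was compared with each of the 3 members of widest range, as a description. These libraries pool control and knockout groups, so genes that differ strongly between them reach a high r with S100A14. ZBED10P, for example, was 15.4 and 16.8 CPM in lone and co-cultured control cells, and 0 and 0.0124 in knockout cells. Genotype and cell population cannot be told apart in that difference, and r within a group was not computed. S100A14 was closest to ZBED10P and MMP14 (r = 0.999 each) and SLC43A3 (r = 0.998), and 773 genes had r above 0.95. S100A2 was closest to BIK (0.995), LSM14B (0.993) and HLA-B (0.992), with 371 genes above 0.95. S100P was closest to CMC1 (0.892), SLC7A7 (0.881) and MED31 (0.865), with 0 genes above 0.95.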

How the data were processed

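RNA sequencing libraries of total RNA were analysed as 4 groups of 3. The authors deposited raw counts per Ensembl gene, whole numbers in 1 table, and no column was left unused. The submitters' processing notes name FastQC, STAR 2.7.9a, featureCounts, R 4.2.1, DESeq2 1.36.0 and GRCh38/hg38, without order, annotation or strand setting. Symbols matched 61369 of 61541 identifiers, and 58366 were in GENCODE 29, which gave positions, exon lengths and GC content. Counts were fitted with edgeR 4.0.16 (limma 3.58.1) in R 4.3.3: filterByExpr, TMM scaling, 1 model of 4 group means over 12 libraries, robust quasi-likelihood test, Benjamini-Hochberg adjustment over 16768 genes and a threshold of 0.05. CPM and RPKM were computed from the deposited counts with TMM-scaled library sizes, and log2 CPM with a prior count of 2. The common biological coefficient of variation was 22.1%, and the pipeline was tested on simulated counts. That simulation changed few genes, evenly in both directions, and held no GC trend. It does not cover differences as wide as those between these knockout and control libraries. Alternatives were RLE scaling, library sizes alone, no filter, DESeq2 1.42.0, limma voom, only 2 groups, GC offsets, a replicate block and leaving out each library. All 10 members were named, every other S100 gene with at least 1 CPM in a group, and of each other list the 2 genes with the smallest p in lone knockout against lone control and in co-cultured against lone knockout. Members and lists were chosen with earlier results of these data known. Promoter sequences came from RefSeq GRCh38.p14, and protein sequences were not used here.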

Additional observations from a re-analysis of the deposited data

Results flagged for a closer look

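PLAT, tissue plasminogen activator, had a co-culture difference in knockout cells that was larger than in control cells by 1.46 on the log2 scale (edgeR test of the difference, adjusted p = 0.00636). CD14, a monocyte gene, did so by 2.75 (adjusted p = 0.0111), at 4.76 ± 1.20 CPM in lone control, 2.63 ± 1.18 in co-cultured control, 0.866 ± 0.0613 in lone knockout and 3.25 ± 0.851 in co-cultured knockout libraries. Both kept an edgeR adjusted p under 0.05 in all alternatives computed for them.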

How the results depend on the processing

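Sign changes occurred 39 times in 12 results, 0 of them with a call in the reported fit, and 2 with a call in the alternative. GC offsets moved the number of S100 genes called to 7 in lone knockout against lone control, 4 in co-cultured against lone knockout, 9 in co-cultured knockout against control and 2 in the difference between co-culture changes, and gave the same 4 counts with the replicate block added. The whole table moved too, from 9485 to 10528, 1907 to 4937, 8276 to 10435 and 301 to 1413 genes called with GC offsets. No filter gave 5 in co-cultured against lone knockout and 2 in the difference between co-culture changes, only the 2 groups gave 1 in the former, and library size only and DESeq2 each gave 1 in the latter. Over all genes, no filter called 8.75% in the former and 3.52% in the latter. Only the 2 groups called 4.22% in the former, and library size only and DESeq2 called 1.81% and 5.79% in the latter. Leaving out single libraries gave 1 to 6 in co-cultured against lone knockout, beside 3.13% to 33.4% of all genes. It gave 0 to 2 in the difference between co-culture changes, beside 0.695% to 21.3% of all genes. That count was 1 without lone control replicate 1 or lone knockout replicate 3 and 2 without co-cultured knockout replicate 3.

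Reversed values with GC offsets, and with GC offsets and the replicate block, were 0.34 and 0.33 for S100A6 and 0.18 and 0.19 for S100A16 in lone knockout against lone control, and -0.060 and -0.056 for S100A11 in co-cultured against lone knockout. Between co-cultured and lone control cells they were 0.086 and 0.087 for S100A6 and 0.013 and 0.015 for S100A11. In the difference between co-culture changes they were -0.15 and -0.15 for S100A4 and -0.073 and -0.070 for S100A11. For S100A11 in co-cultured against lone control the value was 0.066 with library size only, 0.016 with no filter, 0.0029 with the replicate block and 0.0086 with only the 2 groups. With library size only the difference between co-culture changes was -0.074 for S100A4 and -0.037 for S100A11. The cause of these changes was not tested.

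Leaving out single libraries gave ranges that crossed 0 for S100A11 in co-cultured against lone knockout (-0.065 to 0.18), and in co-cultured against lone control for S100A2 (-0.027 to 0.20), S100A6 (-0.20 to 0.041), S100A11 (-0.089 to 0.071), S100A13 (-0.24 to 0.085), S100A14 (-0.051 to 0.18), S100A16 (-0.13 to 0.20) and S100P (-0.17 to 0.39). In the difference between co-culture changes the ranges were -0.11 to 0.19 for S100A4 and -0.058 to 0.19 for S100A11.

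The replicate numbers were shared between groups, but libraries with the same number did not deviate together in every group. Correlations ran from -0.60 to 0.49 over 18 pairs, against -0.62 to 0.64 over 36 pairs of different numbers. Outside co-cultured knockout libraries, pairs numbered 1 had 0.19 to 0.49 and pairs numbered 3 had 0.31 to 0.41. Pairs numbered 2 had -0.07 to -0.02 there. With a co-cultured knockout library, pairs numbered 1 had -0.25 to -0.17 and pairs numbered 3 had -0.60 to -0.52. The block therefore pairs numbers that did not go together in all groups. With the replicate block the S100 counts called were 4 in lone knockout against lone control, 2 in co-cultured against lone knockout, 5 in co-cultured knockout against control, 0 in co-cultured against lone control and 0 in the difference between co-culture changes. Over all genes the shares with the block were 54.1%, 6.44%, 46.4%, 0% and 1.07%, in the same order.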

Other observations

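Annexins and other EF-hand sensors, examined with the same alternatives after the data were seen, differed unevenly. Of 13 annexins, 8 passed in lone knockout against lone control cells, 6 higher and 2 lower, and 6 in co-culture, all higher. Over all genes 56.6% and 49.4% passed in either direction, so the counts without direction lie near the background. By direction, 28% of all genes were higher alone and 24.1% in co-culture, beside 6 of the 13 annexins in each. Lower were 28.6% and 25.3% of all genes, beside 2 and 0 annexins. The annexins were not tested as a set. ANXA8L1 rose from 1.17 ± 0.213 to 15.6 ± 1.58 CPM (log2 3.73, SE 0.22, edgeR adjusted p = 3.14e-08), but ANXA8 is a near-identical copy and its reads may be split. ANXA10 was 5.68 ± 0.600 CPM in lone and 13.3 ± 2.28 in co-cultured knockout cells (log2 1.23, SE 0.22, edgeR adjusted p = 0.00484). ANXA5 was 228 ± 10.6 and 355 ± 15.1 CPM in the same groups (log2 0.64, SE 0.13, edgeR adjusted p = 0.00973), and its call was lost without lone knockout replicate 1 (adjusted p = 0.0519). Against lone knockout cells 4 annexins passed in co-culture, all higher, beside 5.97% of all genes higher. When single libraries were left out 1 to 6 passed, beside 3.13% to 33.4% of all genes in either direction.

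Of 28 tested EF-hand sensors, 15 passed in lone knockout against lone control cells, 9 higher and 6 lower, and 9 in co-culture, 7 higher and 2 lower, against 56.6% and 49.4% of all genes. CAPN2, a calpain subunit, rose from 133 ± 28.8 to 658 ± 78.0 CPM (log2 2.31, SE 0.18, edgeR adjusted p = 5.27e-07). HPCAL4 fell from 14.7 ± 3.48 to 0.444 ± 0.0570 CPM (log2 -5.02, SE 0.36, edgeR adjusted p = 1.52e-07). Between co-cultured and lone knockout cells 11.4% of all genes passed in edgeR, 19.96% in DESeq2 and 17.1% in limma voom. Of the 28 sensors 0 passed there in edgeR, DESeq2 and limma voom, and 1 had an unadjusted edgeR p under 0.05. Among those with the smallest p, LCP1 was 1.45 ± 0.398 and 2.51 ± 0.397 CPM and CIB1 269 ± 62.6 and 366 ± 81.8.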
